A study of Arabidopsis thaliana with 4 samples.

Results

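The genes described here build, loosen or modify the plant cell wall. They are the 60 genes whose probe set on the ATH1 array carries a single annotated symbol of a cell wall family: 22 TBL, 18 expansins (10 EXPA, 4 EXPB, 3 EXLA and 1 EXLB), 9 XTH, 7 CSL, 2 IRX, 1 GAUT and 1 PME. Each gene had 1 such probe set, out of 13356 genes with a probe set of their own (13513 such probe sets, of 22746 in all). The families searched were 13, and no probe set used here carried a single CESA, FLA or GATL symbol, so cellulose synthases, fasciclin-like arabinogalactan proteins and GATL enzymes were not analysed here. The rule that picks members reads their names and no measured value, but the families were chosen with earlier results of these data known.

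The study asked which genes respond when ORS1, a NAC transcription factor that promotes leaf senescence, is switched on by dexamethasone (DEX). Arrays were made from whole rosettes of Arabidopsis thaliana in the C24 background at an age of 46 days, all from plants with an inducible ORS1 overexpression construct. The DEX group (2 arrays) was sprayed with 30 µM DEX and the mock group (2 arrays) with 0.05% ethanol, and both were collected 5 h later. The labels call the arrays biological replicates and do not say how many plants or transgenic lines lie behind each, so p-values measure the spread between these arrays. No plants without the construct were measured, so a response to DEX itself and one to ORS1 cannot be told apart, and ORS1 was paired with 0 probe sets here, so the induction was not checked.

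Growing plant cells are held by a wall of cellulose microfibrils tied together by hemicelluloses, above all xyloglucan, and embedded in pectin. Cells enlarge when that network yields. Expansins let the polymers slip past each other, and XTH enzymes cut and rejoin xyloglucan chains. Many CSL proteins and the IRX proteins of this set act in making hemicelluloses, and TBL proteins attach acetyl groups to wall polymers. GAUT proteins make pectin, and PME proteins remove its methyl esters. In mature rosettes most expansion is over, and walls are remodelled during stress and senescence.

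The deposited values are log2 expression values per probe set and array. A probe set was tested when at least 2 arrays reached a log2 value of 4, and a member is said to have risen or fallen at an adjusted p under 0.05 (limma, adjusted over all 19883 probe sets tested). Of the 60 members 57 were tested, and EXLA3, TBL21 and XTH21 were too dim. XTH18 and TBL30 entered the test through a single group, XTH18 through its DEX arrays and TBL30 through its mock arrays, so a difference was built into their selection. Probe sets differ in how strongly they bind, so values are compared between arrays and not between genes. The leaf genes LHCB4.1, LHCB4.2, RCA, PSAN and PSBW, 5 of 7 listed mesophyll markers, stood at 11.48 to 13.42 on all arrays, and EXPA7, a root hair expansin and the 1 measured of 4 root markers, at 5.72 to 5.98. Of the guard cell lineage markers 3 of 5 were measured, with log2 changes of -0.47 (FAMA, adjusted p = 0.511), 0.14 (MUTE) and 0.03 (SPCH), and none of the vascular, floral or trichome markers was measured here.

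Mock replicate 1 stood apart from the other arrays. Its correlations with them were 0.983 to 0.986, against 0.995 between the DEX arrays. Long genes read high on it and short genes low: its median deviation from the mean of all arrays was 0.18 in the longest quintile of genes by span and -0.17 in the shortest, and between -0.07 and 0.08 on the other arrays. Results below are also given without that array, or with the span trend removed from each array.

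Changes across the cell wall families ran from -1.03 to 0.89 on the log2 scale, and a single member passed the test. XTH18, a xyloglucan endotransglucosylase/hydrolase gene, rose 1.85-fold against mock values under the floor of the filter, so the size of its rise is uncertain. That is 1 rise and 0 falls among 57 members, where 0.448% of all tested probe sets passed, 0.246% as rises and 0.201% as falls. Below the threshold more members were lower than higher after DEX: 38 had negative and 19 positive log2 changes, a positive share of 33.3% against 47.2% of all tested probe sets, with a median of -0.09 against -0.012. Among all 60 members, including those too dim to test, 39 were negative. With the span trend removed the split was 34 negative to 23 positive, and without mock replicate 1 it was 36 to 21.

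The groups did not overlap for 23 members with DEX below mock, or 40.4% (19.8% of all tested probe sets), and for 8 members with DEX above mock, or 14% (18.1% of all); in either direction it was 38.0% of all. In 5 members the gap between the groups was at least 0.5 log2 units: XTH18 and XTH33 were above mock (1.19% of all tested probe sets), and TBL26, EXPB3 and TBL36 were below it (0.875% of all, and 2.07% in either direction). At an unadjusted p under 0.05 there were 4 higher members and 11 lower ones, 7.02% and 19.3%, against 4.73% and 4.05% of all tested probe sets (8.78% in either direction). XTH18 and TBL30, which entered the test through a single group, are part of these counts. XTH18 is among the members above mock, those with a wide gap and those higher at an unadjusted p under 0.05. TBL30 is among those wholly below mock. The members share arrays and are not independent of one another, so these shares are descriptions with no test of their own.

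**Figure D1:**
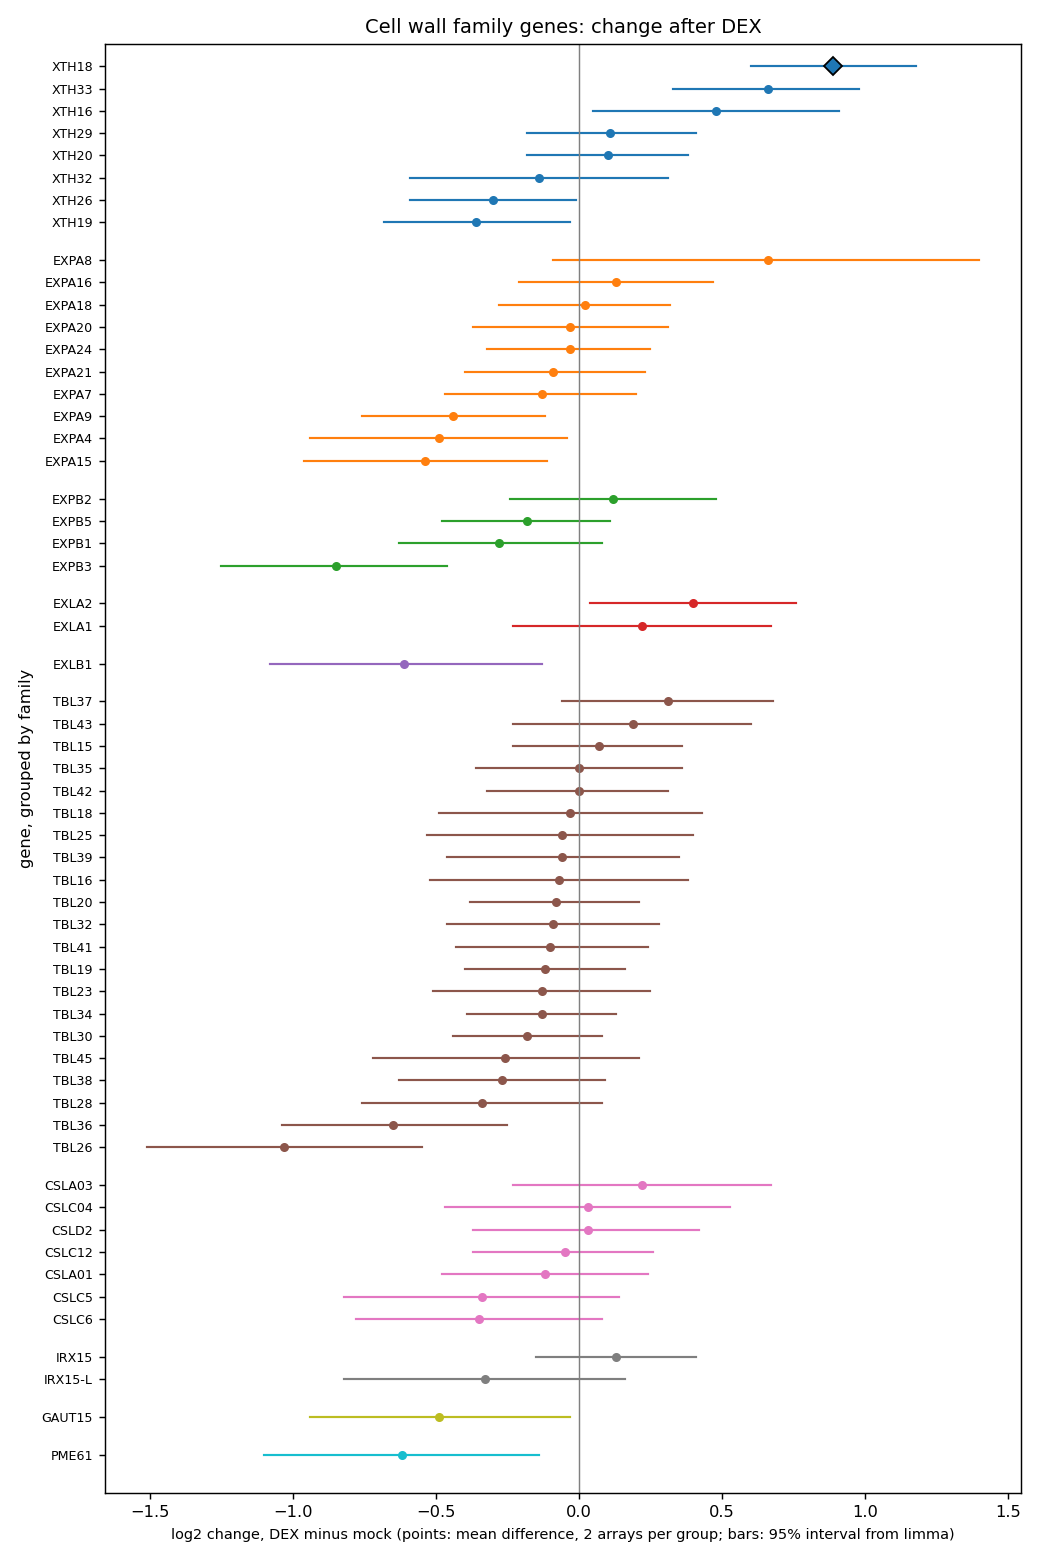
Log2 change (DEX minus mock) of each of the 57 tested members on the x axis, with genes on the y axis grouped and coloured by family. Points are differences of the means of 2 arrays per group and bars are unadjusted 95% intervals from limma; the outlined diamond marks XTH18, which passed at an adjusted p of 0.0311, and TBL26 lies farthest to the left at -1.03.

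The XTH family, whose enzymes graft and cleave xyloglucan, held the 1 member that passed, XTH18, and that gene entered the test through its DEX arrays alone. XTH18 (AT4G30280) read 4.67 and 4.78 on the DEX arrays and 3.95 and 3.73 on the mock arrays. Both DEX values lay above both mock values, and the mock values were under the log2 value of 4 that the filter asked for. The log2 change was 0.89 ± 0.13 (SE; limma adjusted p = 0.0311). Its change stayed between 0.78 and 1.0 when any 1 array was left out. The filter was not applied again in those fits, and without either DEX array XTH18 would have missed it. XTH18 lost its call with quantile normalization applied again (adjusted p = 0.0593), with the span trend removed (0.80, adjusted p = 0.0739), without an intensity trend in the variance (adjusted p = 0.121) and with an unmoderated variance (adjusted p = 0.730), and a filter at 5 left it untested.

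XTH33 (AT1G10550), an XTH with a predicted membrane anchor, read 6.51 and 6.53 after DEX and 5.86 and 5.87 after mock. The pairs differed by far more than the spread within either (SD of 0.018 and 0.0051, n = 2 arrays each), yet the change of 0.66 ± 0.14 (SE), or 1.58-fold, did not pass over all probe sets (limma adjusted p = 0.129). With an unmoderated variance the adjusted p was 0.604. XTH33 stood at 0.64 with the span trend removed (adjusted p = 0.0619). XTH16 read 8.70 and 8.59 after DEX and 8.22 and 8.11 after mock. That is a change of 0.48 ± 0.19 (SE), and it did not pass (limma adjusted p = 0.507). The groups did not overlap, with DEX above mock as in 18.1% of all tested probe sets.

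The next gene along the chromosome from XTH18 is XTH19 (AT4G30290), and its values lay on the other side. XTH19 read 5.95 and 5.83 after DEX and 6.25 on both mock arrays. Its change of -0.36 ± 0.14 (SE) did not pass (limma adjusted p = 0.507), while that of XTH18 did, and the difference between the neighbours was not tested. XTH20, a close relative of both, was at 0.10 (unadjusted 95% interval -0.18 to 0.38). XTH19 and XTH20 are known targets of another NAC factor, ANAC071, in healing stems. Probe sets of such similar genes can share signal, which was not tested here.

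None of the remaining tested XTH genes passed. XTH32 read 9.65 and 9.69 after DEX and 9.93 and 9.69 after mock, a change of -0.14 (unadjusted 95% interval -0.59 to 0.31). XTH26, known from root hairs, was at -0.30 (unadjusted 95% interval -0.59 to -0.01). XTH29 was at 0.11, and XTH21, which was too dim to test, at 0.15. In the tested family 5 changes were positive and 3 negative with a median of 0.11, which kept its sign under all scalings tried and was 0.03, with 4 of each sign, without mock replicate 1.

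**Figure D2:**
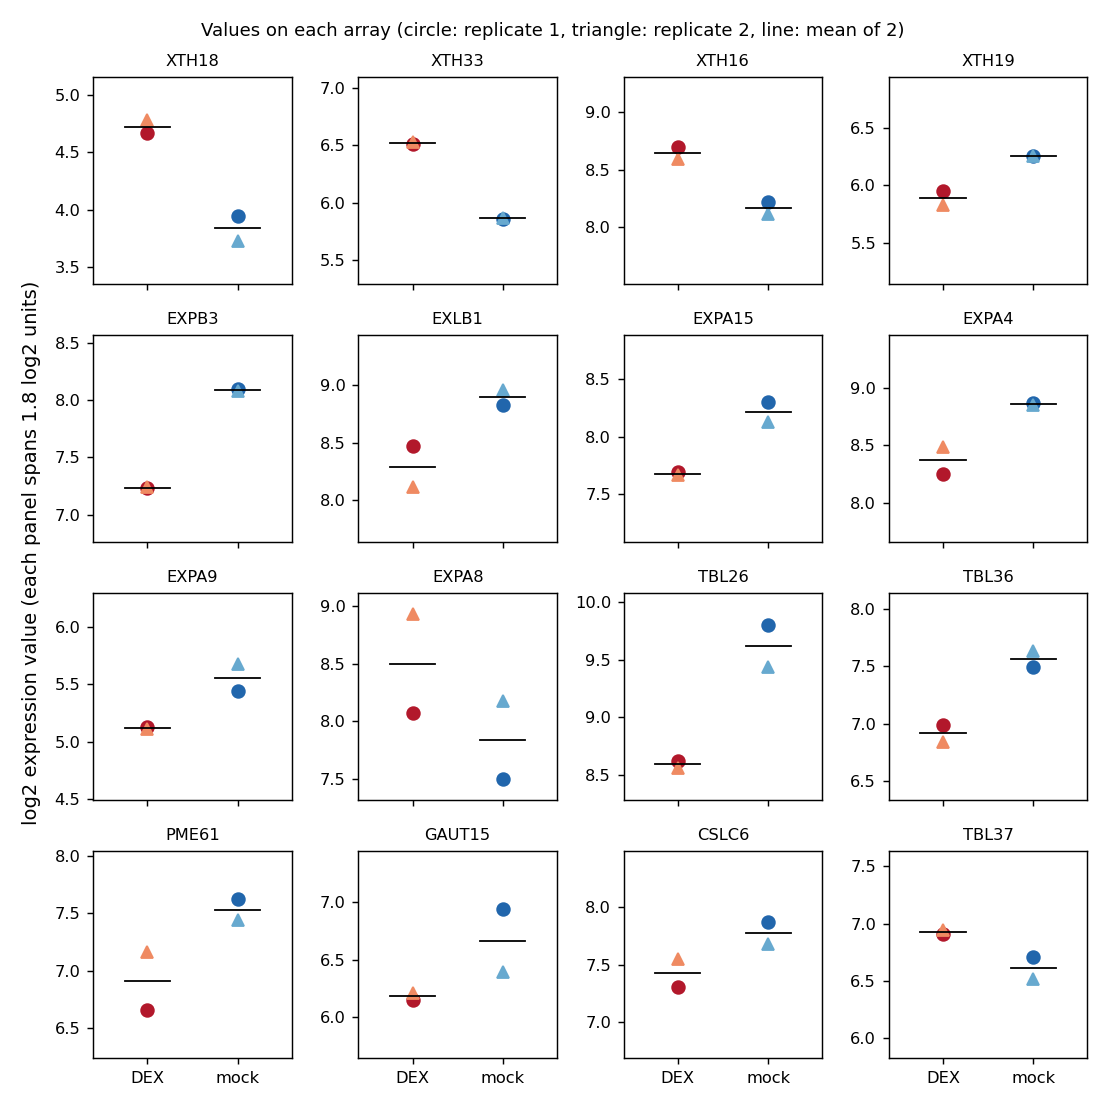
Log2 expression value of 16 members on each array, with DEX and mock side by side; circles are replicate 1, triangles replicate 2 and lines the means, and every panel spans the same height. The groups are apart in XTH18, XTH33, EXPB3, TBL26 and TBL36 by at least 0.5 log2 units, whereas in EXPA8 they overlap.

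The expansins, which loosen walls without cutting polymers, had values on both sides of mock. In limma 0 of 17 tested passed, where 0.448% of all tested probe sets did. At an unadjusted p under 0.05, 1 expansin was higher and 5 were lower, against 4.73% and 4.05% of all. EXPB3 (AT4G28250), a beta-expansin, had the lowest change of the expansins. It read 7.23 and 7.24 on the DEX arrays and 8.10 and 8.08 on the mock arrays, so that DEX lay 1.81-fold below mock with almost no spread within either pair. The change of -0.85 ± 0.17 (SE) had an adjusted p of 0.107 (limma). Its call depended on the setting. EXPB3 passed with the span trend removed (-0.81, adjusted p = 0.0335), where 0.139 was the adjusted p on the same genes without that removal. Its change stayed between -0.86 and -0.85 as single arrays were left out. The other beta-expansins were close to mock, with EXPB1 at -0.28, EXPB5 at -0.18 and EXPB2 at 0.12.

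Among the alpha-expansins, the main wall-loosening group, EXPA4, EXPA15 and EXPA9 lay lowest against mock. EXPA4 read 8.25 and 8.49 after DEX and 8.87 and 8.85 after mock. EXPA15 read 7.69 and 7.67 against 8.30 and 8.13. EXPA9 read 5.13 and 5.11 against 5.44 and 5.68. In each of these genes both DEX arrays lay below both mock arrays, as in 19.8% of all tested probe sets. These genes had changes of -0.49, -0.54 and -0.44, and none passed (limma adjusted p = 0.514, 0.408 and 0.346).

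EXPA8 had the highest change of the group. It read 8.07 and 8.93 after DEX and 7.50 and 8.18 after mock, so replicate 2 was the higher array in both groups and the groups overlapped. Its change of 0.66 ± 0.33 (SE) had the widest interval of any member (unadjusted, -0.09 to 1.40), and it ran from 0.23 to 1.08 as single arrays were left out. The other 6 alpha-expansins, EXPA7 and EXPA18 of root hairs among them, lay between -0.13 (EXPA7) and 0.13 (EXPA16). Over the 10 tested, 7 were negative and 3 positive with a median of -0.06. The median was -0.17 with the span trend removed and -0.13 without mock replicate 1, and 0.02 without mock replicate 2.

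Expansin-like genes encode related proteins whose action on the wall is not established. EXLB1 read 8.47 and 8.11 after DEX and 8.83 and 8.96 after mock, a change of -0.61 ± 0.21 (SE; limma adjusted p = 0.409). The EXLA genes lay on the other side of mock. EXLA2 read 6.39 and 6.65 after DEX and 6.13 and 6.11 after mock, a change of 0.40 ± 0.16 (SE; adjusted p = 0.507). EXLA1 was at 0.22, and EXLA3, its neighbour on the chromosome, was at 0.13 but too dim to test. With the span trend removed EXLA2 and EXLA1 were at 0.30 and 0.10. Without mock replicate 1 they were at 0.41 and 0.06.

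TBL proteins O-acetylate wall polysaccharides, and with 21 tested they were the largest family. In limma 0 passed, against 0.448% of all tested probe sets. At an unadjusted p under 0.05 there were 2 lower and 0 higher, against 4.05% and 4.73% of all. TBL26 (AT4G01080), known as a mannan acetyltransferase, had the lowest change of any member. It read 8.62 and 8.56 after DEX and 9.80 and 9.44 after mock, so that DEX lay 2.04-fold below mock on average. Both DEX arrays were below both mock arrays by at least 0.82 log2 units. The change of -1.03 ± 0.21 (SE) was the 56th lowest of all tested probe sets and had an adjusted p of 0.108 (limma). TBL26 passed with the span trend removed (-1.04, adjusted p = 0.0315), where 0.148 was the adjusted p on the same genes without that removal. TBL26 stood at -0.85 without mock replicate 1 and at -1.21 without mock replicate 2. It stood at -1.06 without DEX replicate 1 and at -1.0 without DEX replicate 2. Its mannan-acetylating relatives TBL23 and TBL25 were at -0.13 and -0.06.

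TBL36 read 6.99 and 6.84 after DEX and 7.49 and 7.63 after mock. The groups were 0.50 log2 units apart, and the change of -0.65 ± 0.17 (SE) did not pass (limma adjusted p = 0.231, and 0.0793 with the span trend removed). The xylan acetyltransferase genes TBL28, TBL30, TBL32, TBL34 and TBL35 were at -0.34, -0.18, -0.09, -0.13 and 0.00. TBL28 and TBL30 are adjacent genes, as are TBL19 and TBL21, which were at -0.12 and -0.09. The highest change of the family was that of TBL37, which read 6.91 and 6.94 after DEX and 6.71 and 6.52 after mock, or 0.31 ± 0.16 (SE; adjusted p = 0.659).

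As a family the TBL genes were mostly a little below mock, with 17 negative and 4 positive changes and a median of -0.09. Mock replicate 1 was the highest of the 4 arrays for 14 of the 21 genes, and their median deviation on it was 0.15, against -0.03 on mock replicate 2. Tested TBL genes have a median span of 2801 bp, longer than the 2197 bp of all tested genes with a span. Without mock replicate 1 the split was 12 negative to 9 positive (median -0.03), and with the span trend removed it was 13 to 8 (median -0.06). The values of TBL26 and TBL36 were as far from mock in the second case as in the values as deposited.

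**Figure D3:**
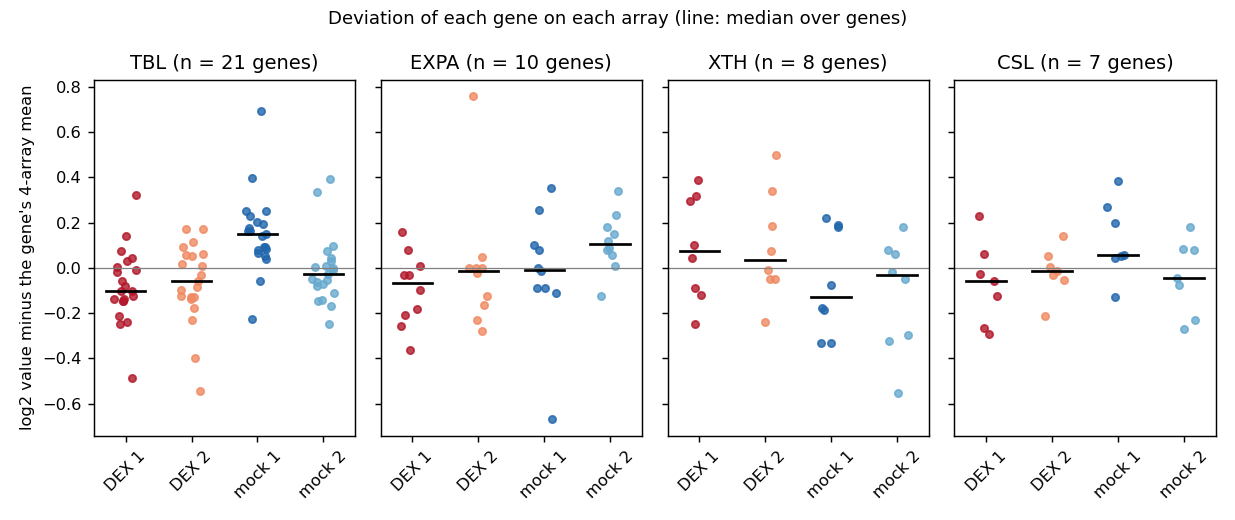
Deviation of each tested gene from its own mean over the 4 arrays, in log2 units on the y axis, by array on the x axis, for the families with at least 5 tested members; points are genes and lines medians. TBL genes sit high on mock replicate 1 (median 0.15) and not on mock replicate 2 (-0.03), and XTH genes sit low on mock replicate 1 (-0.13).

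Of the CSL and IRX genes, which act in making wall polysaccharides, none passed. CSLC proteins synthesise the glucan backbone of xyloglucan, and CSLC04 read 9.86 and 9.77 after DEX and 10 and 9.57 after mock. Its change was 0.03 (unadjusted 95% interval -0.47 to 0.53). CSLC5 read 7.91 and 7.82 after DEX against 8.42 and 7.99, and CSLC6 7.31 and 7.55 against 7.87 and 7.68. Both had no overlap, with DEX below mock as in 19.8% of all tested probe sets. Their changes of -0.34 and -0.35 did not pass (limma adjusted p = 0.708 and 0.667), and CSLC12 was at -0.05. With the span trend removed CSLC5 and CSLC6 were both at -0.26. Without mock replicate 1 they were at -0.13 and -0.26.

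The mannan synthase genes CSLA03 and CSLA01 were at 0.22 and -0.12, and CSLD2, needed for tip growth of root hairs, was at 0.03. The median of the 7 CSL genes was -0.05, and it turned to 0.03 with the span trend removed; their median span was 3555 bp. IRX15 and IRX15-L, a redundant pair acting in xylan synthesis in secondary walls, were at 0.13 and -0.33. IRX15-L rested on an uneven mock pair, with values of 6.25 and 6.85.

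The pectin genes among the members were both below mock without passing. PME61 (AT3G59010), a pectin methylesterase gene, read 6.66 and 7.16 after DEX and 7.62 and 7.44 after mock, a change of -0.62 ± 0.21 (SE; limma adjusted p = 0.394). GAUT15, of the family that polymerises galacturonic acid, read 6.15 and 6.21 after DEX and 6.94 and 6.39 after mock. Its change of -0.49 ± 0.20 (SE; adjusted p = 0.532) shrank to -0.21 without mock replicate 1. A single member stands for each of these families here, so little is known of their other genes. PMEPCRF, a pectin methylesterase gene that is not a member, was at -0.22 (limma adjusted p = 0.839).

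**Figure D4:**
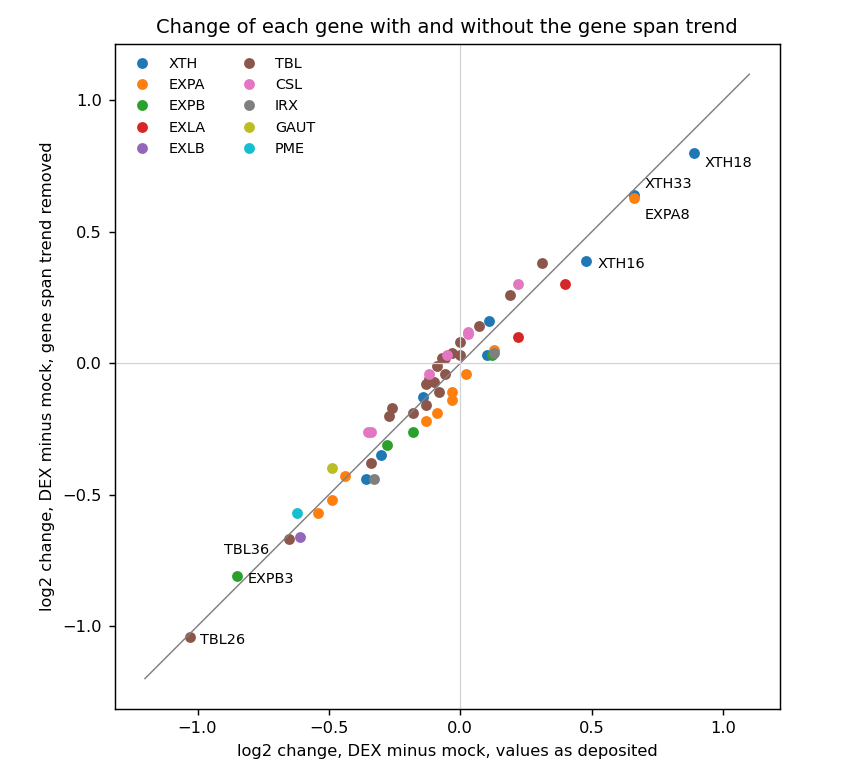
Log2 change (DEX minus mock) of the 57 tested members in the values as deposited (x axis) and with each array's trend on gene span removed (y axis), coloured by family; the diagonal marks equal values. TBL26 (-1.03 and -1.04), EXPB3 (-0.85 and -0.81) and XTH18 (0.89 and 0.80) stay near the diagonal, and several members near 0 change sign.

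Wall genes outside these families were looked up in lists of 244 genes, of which 14 had a probe set with 1 gene and 13 were tested. The lists were chosen with earlier results of these data known, so their counts are descriptions only. The 1 that passed, where 0.448% of all tested probe sets did, was CCOAMT (AT1G67980), a caffeoyl-CoA O-methyltransferase gene related to those of lignin synthesis. It read 7.48 and 7.50 after DEX and 6.13 and 6.23 after mock, and rose by 1.30 ± 0.16 on the log2 scale (SE; limma adjusted p = 0.015). HCT, a further enzyme of that pathway, was at 0.15 and did not pass (2 of 31 listed lignin genes were tested). CCOAMT stood at 1.24 with the span trend removed and at 1.25 without mock replicate 1. With an unmoderated variance in limma it lost its call (adjusted p = 0.604), and 0 of all tested probe sets passed there.

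Of 58 listed genes for wall breakdown and modification 9 were tested, and 0 passed in limma (0.448% of all tested probe sets did). At an unadjusted p under 0.05, 2 were lower and 0 higher, against 4.05% and 4.73% of all. The 9 genes were 8 endoglucanase genes of the GH9 family, which cleave glucan chains, and the pectin methylesterase gene PMEPCRF. All 9 tested had negative changes, from -0.57 (GH9B8 and GH9C2) to -0.01 (GH9C1), with a median of -0.22. Of all tested probe sets 47.2% had a positive change. AT59, a listed gene too dim to test, was at 0.18. The sign of the GH9 genes near 0 depended on the span trend and on single arrays. With the span trend removed, 4 of 8 were positive (0.02 to 0.07) and 4 negative (-0.50 to -0.27). Without DEX replicate 2, 3 of 8 were positive, and 1 of 8 was without each of the other arrays. The median of the 8 was -0.19 on all arrays and -0.09 without mock replicate 1. Quantile normalization applied again left 0 of 8 positive. GH9B8, the lowest by p, read 5.58 and 5.72 after DEX and 6.19 and 6.24 after mock, without overlap (limma adjusted p = 0.200). DEX lay wholly below mock in 19.8% of all tested probe sets. The receptor kinase genes THE1 and FER, which sense wall integrity and growth, were at 0.34 and -0.13, the 2 tested of 54 structural proteins and sensors. No gene of wall polymer synthesis outside the families and no secondary wall regulator was measured here by a probe set with 1 gene.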

How the data were processed

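The deposited table holds log2 expression values of 4 ATH1 arrays that the authors made with GCRMA per the submitters' processing notes (a method that corrects background by probe sequence, quantile-normalizes and summarises by median polish). For its release and options, the sources used here give nothing. The range of the values fits a log2 scale, which GCRMA gives, and no step was added. Of 22810 probe sets, 64 controls were left out and 2863 missed a log2 value of 4 on at least 2 arrays. The other 19883 were fitted together in R 4.3.3 with limma 3.58.1 (lmFit, eBayes with an intensity trend; 2 residual degrees of freedom, two-sided, Benjamini-Hochberg). With 2 arrays against 2 an exact permutation test cannot go below 0.333, and with so few arrays the precision is low.

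Symbols came from the platform annotation and were matched through RefSeq (TAIR10.1; 60 of 60 members), which also gave gene order and span, with no coordinates printed. Of the probe sets 13513 had 1 gene, 503 several and 8730 were unlisted; 2 with several genes carried EXPA symbols and were not used. The span trend was removed per array by loess on log2 span over 11284 tested nuclear genes. The members and lists were chosen with earlier results of these data known. Named genes were the called members, those of highest mean value, highest change and lowest change in each family with 5 or more tested members, all tested members of smaller families, those with groups 0.5 log2 units apart, XTH17 to XTH20, the CESA genes (none measured) and called genes of the lists; others were added for completeness of their family.

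No label ties the replicate numbers of the groups to a shared plant or day. The alternatives covered the filter, scaling, variance model, threshold, probe set choice, a replicate block, the span trend and leaving out each array. The filter was not applied again when an array was left out.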

Additional observations from a re-analysis of the deposited data

How the results depend on the processing

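Of 57 tested members, 20 changed sign in at least 1 of 17 alternatives; none of those 20 was called in any setting with 4 arrays. The fit limited to genes with a span was chosen after seeing the data. Rises and falls over all probe sets were 49 and 40. They were 27 and 24 without an intensity trend, 80 rises with robust eBayes, 0 and 0 with an unmoderated variance (1297 probe sets at an unadjusted p under 0.05), 107 and 81 with the threshold at 0.1, 15 and 9 among genes with a span, and 57 and 41 among the same genes with the span trend removed (0.868% of all tested there, against 0.213% without the removal). As each array in turn was left out, rises ran from 112 to 1803 and falls from 50 to 1388, with the group of 1 array assumed to vary like the other.

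Against 1 rise and 0 falls, members gave 0 rises with a filter at 5 (where XTH18 was not tested), with quantile normalization, without an intensity trend, with an unmoderated variance and with the span trend removed, where 2 fell (EXPB3 and TBL26). With single arrays left out, 1 to 2 members rose and 0 to 7 fell: 2 fell without mock replicate 1 (EXPB3 and TBL26), and without mock replicate 2 XTH18 and XTH33 rose and CSLC5, EXPA15, EXPB3, GAUT15, TBL26, TBL28 and TBL36 fell, in a fit that calls 16.0% of all probe sets. For wall genes outside the families the counts were 1 rise and 0 falls, 0 rises with an unmoderated variance, and 0 to 2 falls and 1 rise as arrays were left out. With a replicate block, which the labels do not tie to a shared plant or day (the DEX and mock differences between replicates correlate at 0.108), 438 probe sets rose and 237 fell, 2 members rose (XTH18 and XTH33), 2 fell (EXPB3 and TBL26), and 1 other wall gene fell (GH9B8).

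With the span trend removed the family medians were 0.03 for CSL, 0.20 for EXLA and -0.17 for EXPA, and with a filter at 5 they were -0.33 for IRX and 0.17 for XTH. Leaving out 1 array moved the medians between -0.15 and -0.03 for all members, -0.13 and -0.02 for CSL, 0.24 and 0.38 for EXLA, -0.13 and 0.02 for EXPA, -0.34 and -0.11 for EXPB, -0.28 and 0.08 for IRX, -0.21 and -0.03 for TBL, and 0.03 and 0.18 for XTH. The cause of these shifts was not tested. XTH18 lies near the floor of the filter, which limits what its fold can show.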
